A study of Mus musculus with 24 samples.

Results

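Expression of 10 genes for surface proteins reported on chronic myeloid leukemia (CML) stem cells was followed across 4 groups of mouse bone marrow LSKs (Lin-Sca-1+c-Kit+ cells), asking which markers follow BCR-ABL and which follow miR-142. The genes were Il1rap, Il2ra, Dpp4, Cd9, Cd33, Cd36, Cd93, Cd47, Cd52 and Cd69. They were found by symbol, 10 of the 24091 genes in the table of read counts, and all 10 were among the 13520 genes with enough reads to test. Each library had its own identifier in the labels and was taken as the sorted LSKs of 1 mouse. Each group then held 6 mice, 3 females and 3 males, of the CD45.2 C57BL/6 (B6) background. WT mice had intact miR-142 and no BCR-ABL in their label, and miR-142 KO mice lacked miR-142 in every cell. CP CML mice were miR-142+/+ BCR-ABL mice, a model of chronic phase, and BC CML mice were miR-142-/- BCR-ABL mice, a model of blast crisis. In both leukemic groups SCLtTA/BCR-ABL transgenes expressed BCR-ABL under the SCL promoter after tetracycline was withdrawn, and LSKs were taken 2 weeks later. The sources used here give neither the age of the mice nor whether WT and miR-142 KO mice carried a transgene. BC CML mice are here a genotype and not a disease stage that each mouse had reached. The design has 2 estimates of the BCR-ABL effect that share no library, CP CML against WT and BC CML against miR-142 KO. It likewise has 2 estimates of the effect of miR-142 loss that share no library, miR-142 KO against WT and BC CML against CP CML.

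Cell surface proteins are used to tell leukemic stem cells from normal stem cells and to aim antibodies at them. IL1RAP, CD25 (encoded by Il2ra), CD26 (Dpp4), CD33, CD36, CD93 and CD9 have each been described on CML stem or progenitor cells, and CD47, CD52 and CD69 are surface proteins of blood cells that have been studied on them too. Their roles differ: IL1RAP and CD25 are subunits of cytokine receptors, CD26 is a peptidase, CD9 is a tetraspanin, CD33 is a sialic acid-binding lectin, CD36 and CD93 bind lipids and matrix proteins, CD47 signals to phagocytes, CD52 is a short glycolipid-anchored glycoprotein and CD69 marks early activation. A microRNA lowers its target messages through short matches between its seed, bases 2 to 8, and the 3′ UTR of the message.

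The miR-142 hairpin gives a pair of mature strands, shown because their seeds define the sites searched in the surface markers. Sequences are from RefSeq (GRCm38.p6, plus strand), with the seed in capitals. The 5p strand is at chr11:87756867-87756887 and the 3p strand at chr11:87756903-87756925.
mmu-miR-142a-5p: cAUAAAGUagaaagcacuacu
mmu-miR-142a-3p: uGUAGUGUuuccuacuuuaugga
The 7-base matches to these seeds, read on the strand of the message, are ACTTTAT for 5p and ACACTAC for 3p. They were sought in the longest annotated 3′ UTR of each gene (GENCODE M21, GRCm38), which was available for 10 of 10 members and 12618 tested genes. Il1rap, Cd33 and Cd69 each held a 5p match, 3 of 10 members against 15.9% of the tested genes. Cd33 was the member with a 3p match, 1 of 10 against 6.97%. The 4 stretches are shown with the match in capitals, in the order chr16:26716726-26716732 (plus strand), chr7:43528267-43528273 (minus), chr6:129267998-129268004 (minus) and chr7:43526491-43526497 (minus), coordinates being those of the match.
Il1rap, 5p match: cttgagtttctACTTTATtccctgaggtc
Cd33, 5p match: ggcccagtgtcACTTTATttcctgatgtc
Cd69, 5p match: ctcatcaacgcACTTTATttttttttaaa
Cd33, 3p match: tctgtatagcaACACTACaagacaagtac
The 3p match in Cd33 is followed by an A and so makes the 8-base match, which 3.09% of the tested genes hold. It lies beyond the gene model used for the counts, which ends at 43527456 on chromosome 7, while the other 3 matches lie within theirs. Il2ra, Dpp4, Cd9, Cd36, Cd93, Cd47 and Cd52 held neither ACTTTAT nor ACACTAC in this window. A 6-base match followed by an A, another 7-base form, was not counted as a match here. Of these members Cd93 and Cd47 held that form for 5p (CTTTATA). With a 6-base match (CTTTAT or CACTAC), 7 members held one for 5p, where 39.8% of the tested genes did, and 2 for 3p, where 19.7% did. A match is a stretch of letters and not a measured site of binding.

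Mir142 itself was examined first as a check of the labels (chr11:87756864-87756927 in mm10). It had 94 to 127 counts in the WT libraries and 68 to 153 in the CP CML libraries, and 0 in each miR-142 KO and BC CML library. With a count of 0 taken as at most 3 counts per library, WT LSKs held at least 35.9-fold more Mir142 than miR-142 KO LSKs, and CP CML LSKs at least 36.9-fold more than BC CML LSKs. Total counts ranged from 16267965 to 24687077. Kit and Ly6a (Sca-1) of the LSK gate, taken with Cd34 and Ptprc, summed to 2361 to 3026 CPM in every library. CPM are read counts scaled to one common library total, with totals adjusted by the TMM method. That sum hides differences in single genes. Ly6a was at 41.7 ± 7.43 CPM in WT and 92.3 ± 39.7 CPM in miR-142 KO (SD, n = 6). In CP CML it was at 51.9 ± 13.4 CPM and in BC CML at 110.3 ± 16.2 CPM. Kit was at 936.1 ± 152.7 CPM in WT and 801.2 ± 111 CPM in miR-142 KO. In CP CML it was at 1109 ± 102.6 CPM and in BC CML at 807.2 ± 51.4 CPM. Markers of other cell types were present at levels that differed between groups, and each list is given beside 1 surface marker that was called in at least 1 of the same comparisons. WT replicate 3, a female, stood apart with 1443 CPM of 12 macrophage markers, against 126.0 to 274.8 CPM in the other WT libraries. In these bulk samples a gene expressed by fewer cells and a gene with less RNA per cell cannot be told apart.

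Each comparison called 5 to 7 of the 10 markers. Of these, 5 were called with the same sign in both comparisons of miR-142 loss and 2 in both comparisons of BCR-ABL, and no test compares those counts. A gene was called when its Benjamini-Hochberg adjusted p from edgeR's quasi-likelihood test was below 0.05, and groups were said not to overlap when every library of one lay above every library of the other. In CP CML against WT LSKs 6 of 10 members were called, where 45.4% of all tested genes were. Il1rap, Il2ra and Cd47 were higher (22.5% of all tested genes) and Cd9, Cd36 and Cd93 lower (22.9%), and 4 members did not overlap between the groups (21.8%). In BC CML against miR-142 KO LSKs 5 members were called, where 39.6% of all tested genes were. Cd33 was higher (20.3%) and Dpp4, Cd36, Cd93 and Cd52 lower (19.3%), and 2 members did not overlap (10.6%). In miR-142 KO against WT LSKs 7 members were called, where 36.3% of all tested genes were. Il1rap, Il2ra, Cd9 and Cd47 were higher (19.9%) and Dpp4, Cd33 and Cd36 lower (16.4%), and 5 members did not overlap (14.5%). In BC CML against CP CML LSKs 6 members were called, where 38.0% of all tested genes were. Il2ra and Cd9 were higher (20.4%) and Dpp4, Cd33, Cd36 and Cd52 lower (17.6%), and 3 members did not overlap (20.7%). On library totals that were not adjusted by TMM, 3, 2, 3 and 4 members did not overlap in the order of these comparisons. The share of all tested genes was not computed on that scale, so these 4 counts describe the members alone. The shares of all tested genes called higher or lower are also the background for the counts of partner and cell lists below. The median log2 fold change of the 10 members in the order of these comparisons was 0.15, -0.08, 0.12 and -0.19, and that of all tested genes was -0.020, -0.019, 0.0054 and 0.014.

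**Figure D1:**
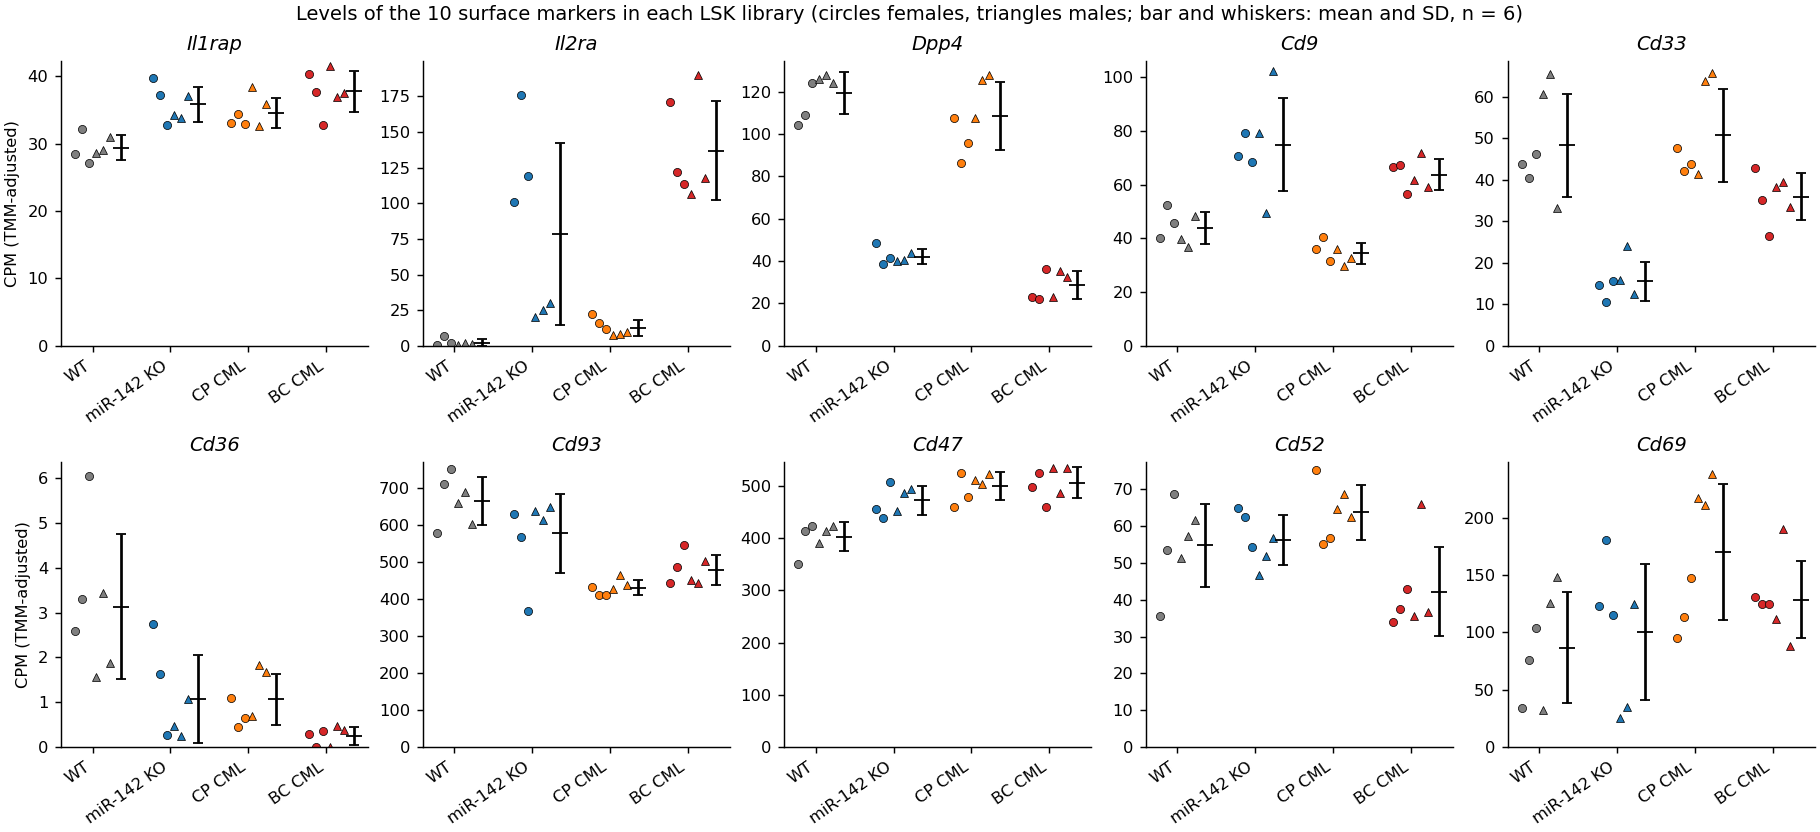
Each panel is 1 surface marker; the y axis is TMM-adjusted CPM and each point is 1 library (circles females, triangles males), with the mean and SD of 6 mice beside it. Il2ra sat at 0.30 to 7.22 CPM in WT and at 106.8 to 190.3 CPM in BC CML, while Dpp4 sat at 104.2 to 127.7 CPM in WT and at 21.9 to 36.2 CPM in BC CML.

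A marker was said to follow BCR-ABL when it was called with the same sign in both BCR-ABL comparisons, and to follow miR-142 when it was called with the same sign in both comparisons of miR-142 loss. Cd36 and Cd93 followed BCR-ABL, 2 of 10 members where 25.6% of the tested genes did. Both were lower with it, as 11.5% of the tested genes were, and 0 members were higher with it (14.1%). Il2ra, Cd9, Dpp4, Cd33 and Cd36 followed miR-142, 5 of 10 members where 21.1% of the tested genes did. Il2ra and Cd9 were higher without it (11.5% of the tested genes), and Dpp4, Cd33 and Cd36 lower (9.59%). Cd36 was in both classes, as 7.94% of the tested genes were, and 4 members were in neither (61.2%). Il1rap and Cd47 were called in the comparisons with WT alone, Cd52 in those with BC CML alone, and Cd69 in none, as 24.5% of the tested genes were. Without miR-142 KO replicate 1, 0 members followed BCR-ABL, and without miR-142 KO replicate 2 there were 3, with Il2ra added. Whichever mouse was left out, 4 or 5 members followed miR-142. The shares of all tested genes in these classes were not computed with a mouse left out, so these counts describe the members alone. The difference of the effects, miR-142 loss with BCR-ABL minus miR-142 loss without it, was called for 1 member, Cd33, and for 3.99% of the tested genes (1.91% above 0, as Cd33 was, and 2.08% below).

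**Figure D2:**
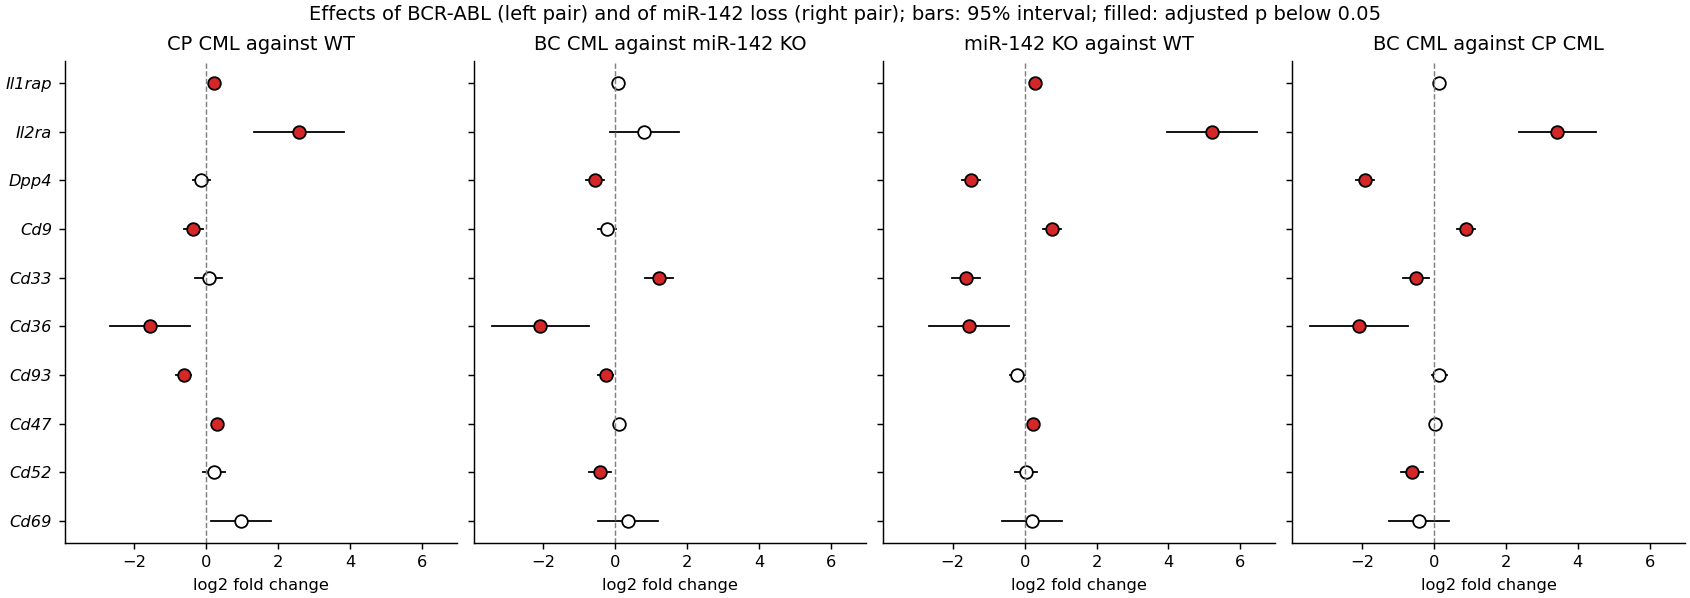
The x axis is the log2 fold change with its 95% interval for each of 10 markers, in the 2 comparisons of BCR-ABL (left pair) and the 2 of miR-142 loss (right pair); filled points have an adjusted p below 0.05. Il2ra lies farthest to the right in 3 of the 4 panels, and Dpp4, Cd33 and Cd36 lie left of 0 in both panels of miR-142 loss.

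Il2ra encodes CD25, the subunit that raises the affinity of the IL-2 receptor and that normal long-term stem cells are known to lack (chr2:11642792-11693194, plus strand). Its level in BC CML was far above that in WT. The lowest, median and highest levels were 0.30, 1.52 and 7.22 CPM in WT libraries, 20.3, 65.2 and 175.7 CPM in miR-142 KO, 7.84, 10.7 and 22.6 CPM in CP CML, and 106.8, 119.9 and 190.3 CPM in BC CML. WT lay below every other group, and BC CML lay above CP CML without overlap, while BC CML and miR-142 KO overlapped. Loss of miR-142 went with a 37.2-fold higher level in LSKs without BCR-ABL (log2 fold change 5.22 ± 0.61 SE, edgeR adjusted p = 5.75e-07) and a 10.8-fold higher level in LSKs with it (3.44 ± 0.52, edgeR adjusted p = 1.95e-05). BCR-ABL went with a 6.01-fold higher level in the presence of miR-142 (2.59 ± 0.60, edgeR adjusted p = 0.00144). In its absence the log2 fold change was 0.80 ± 0.47 and not called (edgeR adjusted p = 0.175), though it was called without miR-142 KO replicate 2 (1.21, edgeR adjusted p = 0.0469). The difference of the effects was -1.78 ± 0.76 (edgeR adjusted p = 0.195). WT replicate 2, a female, held 7.22 CPM where the other WT libraries held 0.30 to 1.76 CPM. Without it the log2 fold change of Il2ra was 3.51 in CP CML against WT and 6.14 in miR-142 KO against WT, and the difference of the effects was called (-2.72, edgeR adjusted p = 0.0464).

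The miR-142 KO libraries split by sex for Il2ra. The 3 KO females held 100.7, 175.7 and 119.2 CPM, and the 3 KO males 20.3, 24.9 and 29.8 CPM. In the labels the identifiers of the KO females also lie above those of the KO males. Sex therefore cannot be told apart here from anything else that ran with those identifiers. In BC CML the females held 171.1, 121.7 and 113.4 CPM and the males 106.8, 190.3 and 118.1 CPM, so that the sexes overlapped there. CP CML females lay above CP CML males, at 11.4 to 22.6 CPM against 7.84 to 9.90 CPM. A comparison of females with males within each group was added after these values were seen, in a fit with 8 means of group and sex. Il2ra was 5.28-fold higher in females than in males of the miR-142 KO group (log2 fold change 2.40 ± 0.43, edgeR adjusted p = 0.0073), where 1.15% of the tested genes were called. It was the member called in that comparison, and 0 members were called between the sexes in WT, CP CML or BC CML, where 0.0814%, 0.0962% and 0.0592% of the tested genes were called. Among males, BC CML lay 5.54-fold above miR-142 KO for Il2ra (log2 fold change 2.47 ± 0.43, edgeR adjusted p = 0.000557), where 28.1% of the tested genes were called. Among females the ratio was 1.03 (0.04 ± 0.40, edgeR adjusted p = 0.959), where 12.7% were called. The other comparisons called Il2ra in each sex. In CP CML against WT the log2 fold change was 2.45 in females (29.1% of the tested genes called) and 2.92 in males (25.8%), in miR-142 KO against WT 5.44 (22.8%) and 4.43 (20.9%), and in BC CML against CP CML 3.03 (16.4%) and 3.98 (27.5%). In BC CML against miR-142 KO the log2 fold change of Il2ra was 1.21 with sex as a covariate in all 24 libraries. It was called there (edgeR adjusted p = 0.0166). The difference between the sexes in the comparison of BC CML with miR-142 KO was itself not called over all genes (-2.43 ± 0.58, unadjusted p = 0.000445 from edgeR, adjusted p = 0.353). The planned tests of a sex difference, averaged over both genotypes, called 0 members for the BCR-ABL effect (0% of the tested genes) and 0 for the miR-142 effect (0.0074%), and the likelihood ratio test of edgeR called 0 too. At an unadjusted p below 0.05, Il2ra and Cd36 differed in the BCR-ABL effect and Cd69 in the miR-142 effect.

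**Figure D3:**
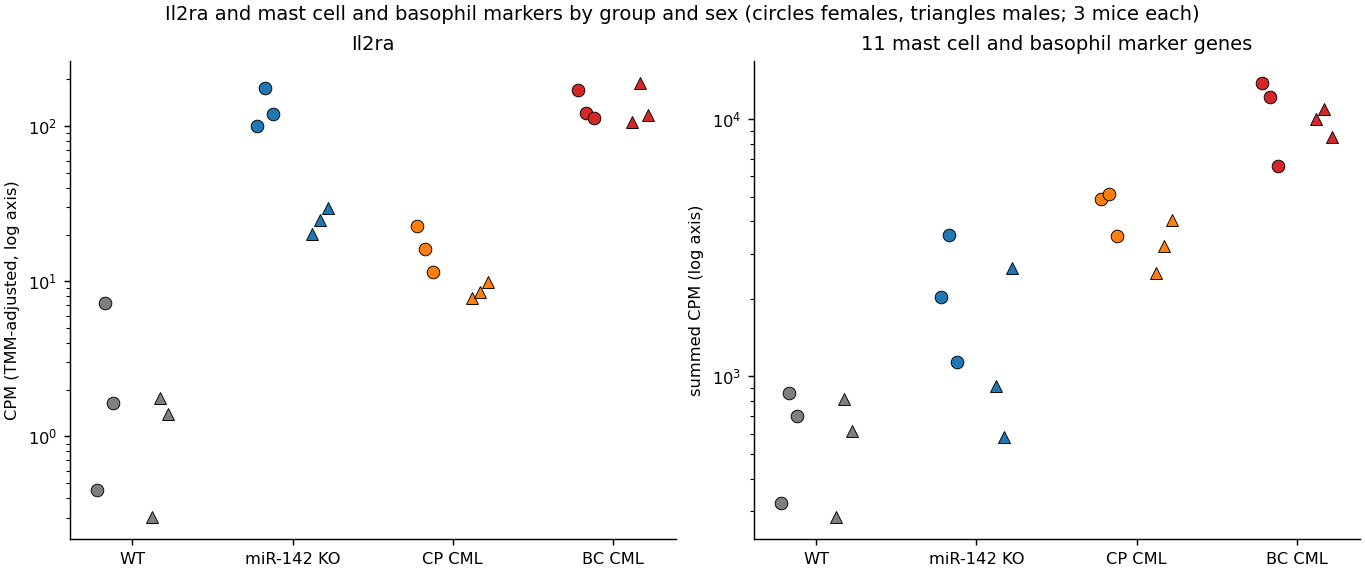
The left panel plots Il2ra in TMM-adjusted CPM and the right panel the summed CPM of 11 mast cell and basophil markers, both on log axes, with 3 females (circles) and 3 males (triangles) in each group. For Il2ra the miR-142 KO females lie at 100.7 to 175.7 CPM and the males at 20.3 to 29.8 CPM without overlap, whereas for the marker list the sexes of that group overlap.

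Most markers of mast cells and basophils were called higher in each of the 4 comparisons. Of 11 genes tested, 9 were higher in CP CML against WT (22.5% of all tested genes), 8 in BC CML against miR-142 KO (20.3%), 7 in miR-142 KO against WT (19.9%) and 7 in BC CML against CP CML (20.4%), and 0 were lower in any. Their summed level was 283.7 to 858.8 CPM in WT, 580.8 to 3547 CPM in miR-142 KO, 2518 to 5120 CPM in CP CML LSKs and 6547 to 13830 CPM in BC CML, with Cpa3 the most abundant in both leukemic groups. The order of the groups differed, with CP CML above miR-142 KO for this list by the median (3789 against 1581 CPM) and below it for Il2ra. Within miR-142 KO the list was at 1133 to 3547 CPM in females and 580.8 to 2643 CPM in males. Markers of T and NK cells, which can carry CD25, summed to 99.8 to 146.9 CPM in WT, 134.5 to 192.3 CPM in miR-142 KO, 97.8 to 118.5 CPM in CP CML LSKs and 99.5 to 139.2 CPM in BC CML, with Nkg7 the most abundant. Of the 8 tested, 4 were higher and 3 lower in miR-142 KO against WT, 1 and 3 in BC CML against CP CML, 0 and 3 in CP CML against WT, and 0 and 4 in BC CML against miR-142 KO. In CP CML against WT 1 T or NK marker was lower without WT replicate 2 or CP CML replicate 2, 3, 4 or 6. In BC CML against miR-142 KO 2 were lower without miR-142 KO replicate 2, and 6 without miR-142 KO replicate 3 or 5. None of the genes of either list found in the file was at 0 in all libraries of a group. The part of these cells in the level of Il2ra was not tested.

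Of the partners of CD25, the receptor subunits and signal molecules of the IL-2 family, 14 of 15 were tested. In CP CML against WT 4 were higher and 5 lower, in BC CML against miR-142 KO 3 and 4, in miR-142 KO against WT 3 and 0, and in BC CML against CP CML 3 and 2. Il2rb, the signalling beta chain, rose without miR-142 in both comparisons, from 3.12 ± 2.53 CPM in WT to 18 ± 17.7 CPM in miR-142 KO (SD, n = 6) and from 1.47 ± 0.57 CPM in CP CML LSKs to 10.1 ± 1.52 CPM in BC CML (log2 fold change 2.79 ± 0.68, edgeR adjusted p = 0.00243). In CP CML against WT, where Il2ra rose, Il2rb had a log2 fold change of -1.10 and was not called (edgeR adjusted p = 0.196). Socs2 and Socs3, feedback inhibitors of STAT signalling, rose with BCR-ABL in both comparisons, that of Socs3 in BC CML against miR-142 KO being lost without BC CML replicate 5 (edgeR adjusted p = 0.0562). Socs3 was at 28.7 ± 13.1 CPM in WT and 138.8 ± 36.4 CPM in CP CML (log2 fold change 2.28 ± 0.39, edgeR adjusted p = 7.96e-05). Il7r, a receptor of lymphoid progenitors, fell from 51.4 ± 17.3 CPM in WT to 21.5 ± 4.85 CPM in CP CML (log2 fold change -1.26 ± 0.30, edgeR adjusted p = 0.00165). The genes whose levels (log2 of CPM plus 1) ran most like Il2ra over the 24 libraries were Ptpn13 (r = 0.97), Rnf128 (r = 0.96) and Cysltr1 (r = 0.95), and the likeness of Rnf128 and Ptpn13 was 0.91 and 0.88 for deviations from the group means. These libraries share groups and sex, so the values describe the pattern alone.

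Il1rap encodes the accessory chain that IL-1, IL-33 and IL-36 receptors need to signal (chr16:26581705-26725147, plus strand). It moved little, and the changes were larger than the narrow spread between mice. In WT libraries the lowest, median and highest levels were 27.1, 28.9 and 32.1 CPM, with 32.8, 35.7 and 39.7 CPM in miR-142 KO, 32.6, 33.8 and 38.4 CPM in CP CML, and 32.8, 37.6 and 41.5 CPM in BC CML. On this TMM-adjusted scale every library of the other 3 groups lay above every WT library. On library totals WT reached 33.3 CPM and overlapped each of them, since the lowest library held 31.5 CPM in miR-142 KO, 32.2 CPM in BC CML and 32.8 CPM in CP CML. Il1rap was 1.17-fold higher in CP CML than in WT (log2 fold change 0.23 ± 0.061, edgeR adjusted p = 0.00383) and 1.22-fold higher in miR-142 KO than in WT (0.28 ± 0.061, edgeR adjusted p = 0.000858). In BC CML the differences from miR-142 KO (0.078, 95% interval -0.048 to 0.20) and from CP CML (0.13, 0.0029 to 0.26) were not called.

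Some receptors and ligands that use IL1RAP changed by far more than Il1rap itself. Of 15 tested partners, 8 were higher and 1 lower in CP CML against WT, 7 and 3 in BC CML against miR-142 KO, 4 and 1 in miR-142 KO against WT, and 1 and 2 in BC CML against CP CML. Il1rl1 (ST2), the IL-33 receptor, rose in all 4 comparisons. It was at 20.4 ± 8.57 CPM in WT, 210.1 ± 125.4 CPM in miR-142 KO, 542.4 ± 170.8 CPM in CP CML LSKs and 1159 ± 273.3 CPM in BC CML (SD, n = 6), and was 26.6-fold higher in CP CML than in WT (log2 fold change 4.73 ± 0.37, edgeR adjusted p = 2.49e-09). Il1rl1 is also 1 of the 11 genes of the mast cell and basophil list above. The ligand genes stood at low levels: Il1b rose from 0.33 ± 0.25 CPM in WT to 4.99 ± 2.6 CPM in CP CML (log2 fold change 3.88 ± 0.53, edgeR adjusted p = 5.72e-06), and Il1a from 0.29 ± 0.26 CPM in miR-142 KO to 5.17 ± 3.22 CPM in BC CML (4.17 ± 0.73, edgeR adjusted p = 0.000166). Il1r2, the decoy receptor, was higher in BC CML than in miR-142 KO (log2 fold change 0.91 ± 0.32, edgeR adjusted p = 0.0274), a call lost without BC CML replicate 5 (0.56, edgeR adjusted p = 0.133) and without 4 other libraries. The genes most like Il1rap over the 24 libraries were Dstn (r = 0.89), Cpeb2 (r = 0.88) and Ttc39c (r = 0.88).

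Dpp4 encodes CD26, a membrane peptidase that trims the stem cell chemokine CXCL12 (chr2:62330073-62412231, minus strand). It fell sharply without miR-142. The lowest, median and highest levels were 104.2, 124.1 and 127.7 CPM in WT, 38.8, 40.8 and 48.4 CPM in miR-142 KO, 86.2, 107.8 and 127.7 CPM in CP CML, and 21.9, 27.8 and 36.2 CPM in BC CML. The libraries with miR-142 and those without it were separated by a gap, and BC CML lay below miR-142 KO without overlap. Dpp4 was 2.83-fold lower in miR-142 KO LSKs than in WT (log2 fold change -1.5 ± 0.12, edgeR adjusted p = 1.73e-09) and 3.79-fold lower in BC CML LSKs than in CP CML (-1.92 ± 0.12, edgeR adjusted p = 2.21e-11). With BCR-ABL it was 1.47-fold lower in the absence of miR-142 (-0.56 ± 0.12, edgeR adjusted p = 0.000961), and in its presence the log2 fold change was -0.14 (95% interval -0.37 to 0.10). The difference of the effects was not called (-0.42 ± 0.17, edgeR adjusted p = 0.154). The 3 calls of Dpp4 held under every alternative tried, other than that in BC CML against miR-142 KO with a fold limit of 1 on the log2 scale.

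Among 9 tested partners of CD26, 5 were higher and 1 lower in CP CML against WT, 3 and 1 in BC CML against miR-142 KO, 2 and 0 in miR-142 KO against WT, and 2 and 2 in BC CML against CP CML. Cxcl12 stood at low levels and fell from 2.42 ± 1.40 CPM in miR-142 KO to 0.24 ± 0.16 CPM in BC CML (log2 fold change -3.27 ± 0.72, edgeR adjusted p = 0.00118). Its receptor Cxcr4 rose in CP CML against WT, from 121.2 ± 12.7 to 161.0 ± 36.1 CPM (0.41 ± 0.13, edgeR adjusted p = 0.0143). Dpp7, a related peptidase, was 1.55-fold higher in BC CML than in miR-142 KO (0.63 ± 0.081, edgeR adjusted p = 4.08e-06). Gpc3, a glypican reported to inhibit CD26, was 2.58-fold higher in CP CML than in WT (1.37 ± 0.27, edgeR adjusted p = 0.000346). Markers of B cells and plasma cells (11 of 11 genes, none at 0 in a whole group) had lower sums in the libraries without miR-142. They summed to 71.8 to 982.8 CPM in WT and 173.8 to 794.0 CPM in CP CML LSKs, with Jchain the most abundant, and to 27.8 to 47.7 CPM in miR-142 KO and 28.7 to 40.7 CPM in BC CML, with Cd79b the most abundant. Of the 10 tested, 3 were lower in miR-142 KO against WT (5 without miR-142 KO replicate 2), 4 in BC CML against CP CML, 2 in CP CML against WT and 3 in BC CML against miR-142 KO, and 0 were higher in any. The part of these cells in the level of Dpp4 was not tested. The genes most like Dpp4 were St14 (r = 0.97), Rassf5 (r = 0.96) and Map3k19 (r = 0.96).

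Cd9 encodes a tetraspanin, a membrane organizer that binds integrins and other tetraspanins (chr6:125460266-125494755, minus strand). It was higher without miR-142, where Dpp4 was lower. In WT libraries the lowest, median and highest levels were 36.9, 42.9 and 52.2 CPM, with 49.3, 74.8 and 102.3 CPM in miR-142 KO, 29.5, 34.2 and 40.5 CPM in CP CML, and 56.4, 64.0 and 71.8 CPM in BC CML. BC CML lay above CP CML without overlap, while 1 miR-142 KO library at 49.3 CPM reached into the WT range. Cd9 was 1.71-fold higher in miR-142 KO than in WT (log2 fold change 0.77 ± 0.12, edgeR adjusted p = 2.72e-05) and 1.86-fold higher in BC CML than in CP CML (0.89 ± 0.12, edgeR adjusted p = 5.16e-06). It was 1.28-fold lower in CP CML than in WT (-0.35 ± 0.12, edgeR adjusted p = 0.0223). That last call was lost without WT replicate 2 (edgeR adjusted p = 0.0704), CP CML replicate 3 (0.0562) or CP CML replicate 5 (0.0589). In BC CML against miR-142 KO the log2 fold change of Cd9 was -0.23 (95% interval -0.48 to 0.017), and it was called without miR-142 KO replicate 5 (-0.34, edgeR adjusted p = 0.0139).

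Cd151 and Cd63, other tetraspanins, rose in both comparisons of miR-142 loss. Of 22 tested partners of Cd9, 7 were higher and 4 lower in miR-142 KO against WT, and 10 higher and 1 lower in BC CML against CP CML, where 20.4% of all tested genes were higher and 17.6% lower. In the BCR-ABL comparisons 6 were higher and 6 lower in CP CML against WT and 5 and 3 in BC CML against miR-142 KO. Cd151, a tetraspanin of laminin-binding integrins, was at 26.3 ± 2.92 CPM in WT, 64.5 ± 2.68 CPM in miR-142 KO, 23.9 ± 1.53 CPM in CP CML LSKs and 66.3 ± 6.28 CPM in BC CML (SD, n = 6), and was 2.77-fold higher in BC CML than in CP CML (log2 fold change 1.47 ± 0.069, edgeR adjusted p = 1.07e-13). Cd63, a tetraspanin of lysosomes and granules, was 2.24-fold higher in miR-142 KO than in WT (1.16 ± 0.12, edgeR adjusted p = 1.84e-07) and was called higher in all 4 comparisons, that in BC CML against miR-142 KO being lost without BC CML replicate 5 (0.27, edgeR adjusted p = 0.0807) and without 4 other libraries. Ptgfrn, a direct partner of CD9, was higher in BC CML than in CP CML (1.65 ± 0.43, edgeR adjusted p = 0.00391), and Tspan33 was lower in BC CML than in miR-142 KO (-1.12 ± 0.20, edgeR adjusted p = 0.000166). Markers of megakaryocytes, cells rich in CD9, summed to 157.7 to 262.5 CPM in WT, 215.7 to 647.0 CPM in miR-142 KO, 246.5 to 348.5 CPM in CP CML LSKs and 272.8 to 368.6 CPM in BC CML, from 11 of 12 genes, with Itga2b the most abundant and none at 0 in a whole group. Of the 10 tested, 7 were higher in miR-142 KO against WT and 0 lower, 1 was higher and 1 lower in BC CML against CP CML, 2 were higher and 4 lower in CP CML against WT, and 1 was higher and 8 lower in BC CML against miR-142 KO. Itga2b was also the gene whose deviations from the group means ran most like those of Cd9 (r = 0.84). Without 1 of 4 libraries (WT replicate 2 or 3, CP CML replicate 1 or 3) 2 were lower in CP CML against WT, and without miR-142 KO replicate 6, 4 were higher in miR-142 KO against WT. The sum followed Itga2b, at 122.6 ± 21.1 CPM in WT and 215.9 ± 30.1 CPM in CP CML, while Pf4 was at 16.7 ± 7.30 and 6.52 ± 1.78 CPM. Markers of mature neutrophils (11 of 11 genes, none at 0 in a whole group) summed to 17 to 73.7 CPM in WT, 62.1 to 230.5 CPM in miR-142 KO, 61.6 to 97.0 CPM in CP CML LSKs and 66.0 to 156.0 CPM in BC CML. Of the 10 tested, 6 were higher and 0 lower in miR-142 KO against WT, 1 and 3 in BC CML against CP CML, 3 and 1 in CP CML against WT, and 2 and 7 in BC CML against miR-142 KO. The part of these cells in the level of Cd9 was not tested. Over all 24 libraries the genes most like Cd9 were Unc119 (r = 0.93), Nucb1 (r = 0.90) and Tmem59 (r = 0.89).

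Cd33 encodes a siglec, a sialic acid-binding lectin of myeloid cells (chr7:43527456-43533171, minus strand), and was the marker whose response to miR-142 loss depended on BCR-ABL. The lowest, median and highest levels were 33.2, 45.0 and 65.5 CPM in WT, 10.6, 15.1 and 24 CPM in miR-142 KO, 41.3, 45.6 and 65.8 CPM in CP CML, and 26.4, 36.7 and 42.7 CPM in BC CML. Every miR-142 KO library lay below every library of the other groups. Cd33 was 3.11-fold lower in miR-142 KO LSKs than in WT (log2 fold change -1.64 ± 0.19, edgeR adjusted p = 3.96e-07) and 1.41-fold lower in BC CML LSKs than in CP CML (-0.50 ± 0.18, edgeR adjusted p = 0.0314). The difference of those effects was 1.14 ± 0.26 (edgeR adjusted p = 0.0136). Read the other way, BCR-ABL went with a 2.31-fold higher level where miR-142 was absent (1.21 ± 0.18, edgeR adjusted p = 3.58e-05) and a value of 0.071 (95% interval -0.30 to 0.44) where it was present. The call in BC CML against CP CML was lost without CP CML replicate 5 (edgeR adjusted p = 0.0699), CP CML replicate 6 (0.0779) or BC CML replicate 3 (0.0583), whereas the difference of the effects was called whichever mouse was left out. Cd33, the member with both matches shown above, was lower in both comparisons of miR-142 loss. The part of those matches in its level was not tested.

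The other siglecs did not share one pattern. Of 10 tested partners of Cd33, 3 were higher and 2 lower in CP CML against WT, 2 and 2 in BC CML against miR-142 KO, 4 and 3 in miR-142 KO against WT, and 2 and 1 in BC CML against CP CML. Siglece, the inhibitory siglec of mouse neutrophils and macrophages, followed BCR-ABL, from 2.30 ± 0.93 CPM in WT to 13.6 ± 3.02 CPM in CP CML (log2 fold change 2.56 ± 0.25, edgeR adjusted p = 8.61e-08) and from 2.63 ± 1.02 CPM in miR-142 KO to 12.9 ± 1.53 CPM in BC CML (SD, n = 6). Siglecf, a siglec of eosinophils, was 1.80-fold higher in miR-142 KO than in WT (0.84 ± 0.18, edgeR adjusted p = 0.000629). Siglech, a marker of plasmacytoid dendritic cells, fell in all 4 comparisons at levels of at most 3.67 ± 3.52 CPM, and its calls against WT were lost without WT replicate 3 (CP CML -1.17, edgeR adjusted p = 0.153, and miR-142 KO -1.61, edgeR adjusted p = 0.0643). Its call in BC CML against miR-142 KO was lost without any of 7 libraries (edgeR adjusted p = 0.0594 to 0.0957), and that in CP CML against WT also without CP CML replicate 2, 3, 4 or 6, with the likelihood ratio test of edgeR (adjusted p = 0.0578) and with DESeq2 (adjusted p = 0.0850). Siglec1, a macrophage gene, was lower in miR-142 KO LSKs than in WT (-2.51 ± 0.83, edgeR adjusted p = 0.0209), a call lost without WT replicate 3, the library with most macrophage markers (-1.07, edgeR adjusted p = 0.243). The genes most like Cd33 were Itga9 (r = 0.92), Slc26a11 (r = 0.88) and Clcn3 (r = 0.86).

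Cd36 encodes a receptor that takes up long-chain fatty acids and binds thrombospondin (chr5:17781690-17888959, minus strand). It stood at 0 to 148 counts per library, and was lower with BCR-ABL and lower without miR-142. In WT libraries the lowest, median and highest levels were 1.55, 2.94 and 6.06 CPM, with 0.25, 0.76 and 2.74 CPM in miR-142 KO, 0.45, 0.89 and 1.84 CPM in CP CML, and 0, 0.32 and 0.47 CPM in BC CML, where 2 libraries held no count. Neighbouring groups overlapped in all 4 comparisons. Cd36 was 2.95-fold lower in CP CML than in WT (log2 fold change -1.56 ± 0.54, edgeR adjusted p = 0.0226) and 2.93-fold lower in miR-142 KO LSKs than in WT (-1.55 ± 0.54, edgeR adjusted p = 0.0274). In BC CML it was 4.24-fold lower than in miR-142 KO (-2.08 ± 0.66, edgeR adjusted p = 0.0149) and 4.22-fold lower than in CP CML (-2.08 ± 0.66, edgeR adjusted p = 0.0152). Without WT replicate 3, which held 6.06 CPM and the most macrophage markers, the calls against WT were lost (CP CML -1.25, edgeR adjusted p = 0.0668, and miR-142 KO -1.25, edgeR adjusted p = 0.0768). They were lost too without CP CML replicate 2, 3 or 4 (edgeR adjusted p = 0.0535 to 0.0588) or without miR-142 KO replicate 3, 4 or 5 (0.0571 to 0.0586). Without miR-142 KO replicate 1 the call in BC CML against miR-142 KO was lost (-1.55, edgeR adjusted p = 0.0644).

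Markers of dendritic cells were lower in some of the same comparisons as Cd36. They summed to 967.1 to 1281 CPM in WT, 283.1 to 716.3 CPM in miR-142 KO, 684.3 to 974.4 CPM in CP CML LSKs and 297.4 to 484.9 CPM in BC CML (12 of 12 genes), with Flt3, a receptor of early progenitors too, the most abundant and none at 0 in a whole group. Of the 11 tested, 7 were lower and 0 higher in CP CML against WT, 9 and 0 in BC CML against miR-142 KO, 2 and 1 in miR-142 KO against WT, and 5 and 1 in BC CML against CP CML. In CP CML against WT 3 were lower without WT replicate 3 or CP CML replicate 2 and 4 without CP CML replicate 3 or 4. In BC CML against CP CML 3 were lower without CP CML replicate 4, 5 or 6 or BC CML replicate 1, 2, 4 or 6, and in miR-142 KO against WT 1 was without WT replicate 3. Over all 24 libraries Siglech was among the 3 genes most like Cd36 (Mycl r = 0.93, Tlr11 r = 0.93, Siglech r = 0.91), as a description at low counts. Macrophage markers summed to 126.0 to 1443 CPM in WT, 106.7 to 274.9 CPM in miR-142 KO, 207.8 to 701.4 CPM in CP CML LSKs and 200.5 to 388.5 CPM in BC CML. Within CP CML the females held 207.8 to 273.2 CPM and the males 587.6 to 701.4 CPM without overlap, whereas the sexes overlapped in the other groups. Of 12 tested, 8 were lower in miR-142 KO against WT and 2 in BC CML against CP CML, and 2 were higher in CP CML against WT and 1 in BC CML against miR-142 KO. The count of 8 rested on WT replicate 3, without which 2 were lower and 2 higher, and the median sum was 191.9 CPM in WT and 206.0 CPM in miR-142 KO. It was 5 without miR-142 KO replicate 3 and 4 without miR-142 KO replicate 6. With 1 library left out, 0 to 5 were higher in CP CML against WT (5 without WT replicate 3) and 0 to 3 lower in BC CML against CP CML. Erythroid markers, 11 of 13 genes with none at 0 in a whole group, summed to 627.6 to 771.3 CPM in WT, 406.7 to 586.9 CPM in miR-142 KO, 433.4 to 587.5 CPM in CP CML LSKs and 314.1 to 467.3 CPM in BC CML, with Car2 the most abundant in WT and Tfrc in the other groups. Of the 10 tested, 8 were lower in CP CML against WT, 7 in BC CML against miR-142 KO, 2 in miR-142 KO against WT (1 to 3 with 1 library left out) and 4 in BC CML against CP CML, and 0 were higher in any. The part of these cells in the level of Cd36 was not tested.

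The partners of CD36 include genes of fatty acid handling, its ligand gene Thbs1 and the kinase genes Fyn, Lyn and Src. Among the 20 tested, 5 were higher and 4 lower in CP CML against WT, 4 and 2 in BC CML against miR-142 KO, 4 and 3 in miR-142 KO against WT, and 7 and 1 in BC CML against CP CML. Fabp5, a fatty acid-binding protein, rose with BCR-ABL while Cd36 fell, from 11.6 ± 1.38 CPM in WT to 22.3 ± 2.32 CPM in CP CML (log2 fold change 0.95 ± 0.17, edgeR adjusted p = 9.06e-05). Thbs1, the thrombospondin ligand of both CD36 and CD47, was at 37.4 ± 57.7 CPM in WT and 2.62 ± 1.04 CPM in CP CML (-3.84 ± 0.84, edgeR adjusted p = 0.000873), and the change was smaller without WT replicate 2 (-2.52, edgeR adjusted p = 0.00560). Fabp4 and the lipase Lpl were lower in miR-142 KO LSKs than in WT (-2.63 ± 0.69 and -1.70 ± 0.64, edgeR adjusted p = 0.00449 and 0.0419). Without WT replicate 3 the value for Fabp4 was -1.88 (edgeR adjusted p = 0.0237). The call for Lpl was lost without WT replicate 3 (-0.68, edgeR adjusted p = 0.352) and without 5 other libraries.

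Cd93 encodes a C-type lectin-like receptor of stem cells and endothelium (chr2:148436651-148443535, minus strand). It was lower in both leukemic groups. The lowest, median and highest levels were 577.0, 673.0 and 750.7 CPM in WT, 367.8, 621.6 and 649.7 CPM in miR-142 KO, 409.4, 430.3 and 463.6 CPM in CP CML, and 443.2, 468.3 and 547.1 CPM in BC CML. CP CML lay below WT without overlap, and BC CML lay below 5 of the 6 miR-142 KO libraries. Cd93 was 1.54-fold lower in CP CML than in WT (log2 fold change -0.63 ± 0.099, edgeR adjusted p = 3.16e-05) and 1.21-fold lower in BC CML than in miR-142 KO (-0.27 ± 0.098, edgeR adjusted p = 0.0315). The smaller of these calls was lost without miR-142 KO replicate 1, 4, 5 or 6 or without BC CML replicate 1, 4 or 5 (edgeR adjusted p = 0.0532 to 0.0748), and with the 12 libraries of that comparison alone (0.0814). Without miR-142 KO replicate 3, a female at 367.8 CPM, the log2 fold change was -0.38 (edgeR adjusted p = 7.0e-05). The effect of miR-142 loss was not called without BCR-ABL (-0.20, 95% interval -0.40 to 0.00069) or with it (0.15, -0.049 to 0.36).

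Of 10 tested partners of Cd93, which include its relatives and ligands, 0 were higher and 2 lower in CP CML against WT, 1 and 4 in BC CML against miR-142 KO, 4 and 5 in miR-142 KO against WT, and 4 and 2 in BC CML against CP CML. Mmrn1, a multimerin of platelets and stem cells, was lower without miR-142, from 84.6 ± 23.2 CPM in WT to 31.1 ± 16.3 CPM in miR-142 KO and from 52.5 ± 11.1 CPM in CP CML LSKs to 12.2 ± 5.82 CPM in BC CML (log2 fold change -2.11 ± 0.40, edgeR adjusted p = 0.000242). The complement genes C1qa, C1qb and C1qc were lower in miR-142 KO LSKs than in WT (-2.35 ± 0.82, -2.21 ± 0.79 and -2.33 ± 0.80, edgeR adjusted p = 0.0276, 0.0313 and 0.0255). Those 3 calls were lost without WT replicate 3 among others (C1qa -1.11, C1qb -1.02 and C1qc -1.11, edgeR adjusted p = 0.236, 0.260 and 0.223), and all 3 genes are also on the macrophage list. Markers of endothelial cells (8 of 8 genes, none at 0 in a whole group, with Pecam1 the most abundant) summed to 323.0 to 370.9 CPM in WT, 285.8 to 365.6 CPM in miR-142 KO, 264.1 to 296.8 CPM in CP CML LSKs and 256.6 to 317.4 CPM in BC CML. Of the 7 tested, 5 were lower and 0 higher in CP CML against WT and 3 and 0 in BC CML against miR-142 KO, the comparisons in which Cd93 was lower. In miR-142 KO against WT 4 were lower and 1 higher, and in BC CML against CP CML 4 and 2. The part of these cells in the level of Cd93 was not tested. The genes most like Cd93 were Txndc16 (r = 0.92), Rag1 (r = 0.92) and Stx2 (r = 0.90).

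Cd47 encodes the ligand that tells phagocytes through SIRPA not to engulf a cell (chr16:49855654-49911683, plus strand). It was higher in every other group than in WT, by a small step. In WT libraries the lowest, median and highest levels were 351.1, 413.8 and 423.8 CPM, with 438.5, 472.1 and 509.0 CPM in miR-142 KO, 459.3, 508.8 and 526 CPM in CP CML, and 460.2, 512.4 and 534.5 CPM in BC CML. The WT libraries lay below all others, and the remaining groups overlapped. On library totals the highest WT library (442.0 CPM) lay above the lowest of miR-142 KO (437.4 CPM). Cd47 was 1.24-fold higher in CP CML than in WT (log2 fold change 0.31 ± 0.053, edgeR adjusted p = 6.41e-05) and 1.18-fold higher in miR-142 KO than in WT (0.23 ± 0.053, edgeR adjusted p = 0.00133). BC CML differed from miR-142 KO by 0.098 (95% interval -0.011 to 0.21) and from CP CML by 0.017 (-0.092 to 0.13). The difference of the effects was not called by the main test (-0.22 ± 0.075, edgeR adjusted p = 0.104) and was called by DESeq2 (-0.22, adjusted p = 0.0468) and without WT replicate 3, miR-142 KO replicate 2 or CP CML replicate 1 (edgeR adjusted p = 0.0418 to 0.04999).

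Among 12 tested partners of CD47, 6 were higher and 1 lower in CP CML against WT, 6 and 1 in BC CML against miR-142 KO, 5 and 3 in miR-142 KO against WT, and 3 and 0 in BC CML against CP CML. Itgb3, the integrin beta 3 chain with which CD47 was first found, rose from 33.6 ± 9.58 CPM in WT to 112.2 ± 34.8 CPM in miR-142 KO (log2 fold change 1.74 ± 0.20, edgeR adjusted p = 5.83e-07) and to 57.0 ± 11.9 CPM in CP CML. Thbs2, a thrombospondin, rose from 1.16 ± 0.24 CPM in WT to 3.70 ± 0.85 CPM in miR-142 KO (1.66 ± 0.20, edgeR adjusted p = 7.91e-07), whereas Thbs1 was lower in CP CML than in WT, as given above. Pilra, an inhibitory receptor of myeloid cells, was at 0.64 ± 0.21 CPM in miR-142 KO and 4.0 ± 1.91 CPM in BC CML (2.64 ± 0.62, edgeR adjusted p = 0.00198). The genes most like Cd47 were Pdss1 (r = 0.91), Slc25a16 (r = 0.91) and Fndc3b (r = 0.91).

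Cd52 encodes a short glycolipid-anchored protein, the target of alemtuzumab (chr4:134093538-134095073, minus strand). It was lower in BC CML LSKs than in CP CML or miR-142 KO LSKs. The lowest, median and highest levels were 35.7, 55.5 and 68.7 CPM in WT, 46.7, 55.6 and 65.0 CPM in miR-142 KO, 55.0, 63.5 and 75.1 CPM in CP CML, and 33.9, 37.1 and 66.0 CPM in BC CML. In BC CML 5 of 6 libraries lay at 33.9 to 43.0 CPM, below every miR-142 KO and CP CML library, and replicate 5, a male, held 66.0 CPM. Cd52 was 1.51-fold lower in BC CML LSKs than in CP CML (log2 fold change -0.60 ± 0.15, edgeR adjusted p = 0.00265) and 1.33-fold lower than in miR-142 KO (-0.42 ± 0.15, edgeR adjusted p = 0.0281). Without BC CML replicate 5 these were -0.79 (edgeR adjusted p = 3.66e-05) and -0.60 (0.000877), and the difference of the effects was called (-0.83, edgeR adjusted p = 0.00776), where with all libraries it was not (-0.63 ± 0.21, edgeR adjusted p = 0.0855). That difference was also called without WT replicate 3 (-0.73, edgeR adjusted p = 0.0378) and by DESeq2 (-0.64, adjusted p = 0.0386). The call against miR-142 KO was lost without miR-142 KO replicate 1 or 2 or without BC CML replicate 1, 2, 4 or 6 (edgeR adjusted p = 0.0535 to 0.0664). CP CML against WT (0.22, 95% interval -0.083 to 0.52) and miR-142 KO against WT (0.038, -0.26 to 0.34) were not called.

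Of 10 tested partners of CD52, which include its receptor and the enzymes that build and attach its anchor, at most 3 were called in either direction in any comparison: 1 higher and 1 lower in CP CML against WT, 1 and 3 in BC CML against miR-142 KO, 3 and 2 in miR-142 KO against WT, and 2 and 1 in BC CML against CP CML. Siglecg, the mouse counterpart of the receptor for soluble CD52, was 1.60-fold lower in miR-142 KO LSKs than in WT (log2 fold change -0.68 ± 0.17, edgeR adjusted p = 0.00376). Piga, which makes the first step of the anchor, was 1.57-fold higher in BC CML than in miR-142 KO (0.65 ± 0.13, edgeR adjusted p = 0.000425), and Gpaa1, which helps to attach it, 1.33-fold higher in miR-142 KO than in WT (0.41 ± 0.068, edgeR adjusted p = 5.42e-05). Cd24a, another short glycolipid-anchored protein, was 1.28-fold lower in miR-142 KO LSKs than in WT (-0.36 ± 0.069, edgeR adjusted p = 0.000265). The genes most like Cd52 were Gpr18 (r = 0.82), Frat1 (r = 0.80) and 2410006H16Rik (r = 0.79).

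Cd69 encodes a C-type lectin that appears within hours of activation and holds the receptor S1PR1 inside the cell (chr6:129267325-129275369, minus strand). It was not called in any of the 4 comparisons and varied widely between mice of a group. In WT libraries the lowest, median and highest levels were 31.9, 90.2 and 148.9 CPM, with 24.9, 119.0 and 180.4 CPM in miR-142 KO, 95.6, 179.1 and 238.2 CPM in CP CML, and 88.3, 125.2 and 190.5 CPM in BC CML. All 4 groups overlapped. In CP CML the females held 95.6 to 147.3 CPM and the males 211.0 to 238.2 CPM without overlap, whereas the sexes overlapped in the other groups. That difference was not called (log2 fold change -0.90, edgeR adjusted p = 0.492). In miR-142 KO against WT the log2 fold change of Cd69 was 0.97 in females and -0.74 in males. Neither was called (edgeR adjusted p = 0.183 and 0.343), nor was their difference (adjusted p = 0.575). The log2 fold change in CP CML against WT was 0.97 ± 0.41 and missed the threshold (edgeR adjusted p = 0.0533). It passed with the likelihood ratio test of edgeR (adjusted p = 0.0369) and with the 12 libraries of that comparison alone (0.0425), and without WT replicate 5 or 6 or CP CML replicate 1 or 2 (0.0258 to 0.0474). The intervals of the other comparisons spanned 0, at -0.47 to 1.19 for BC CML against miR-142 KO, -0.63 to 1.04 for miR-142 KO against WT and -1.24 to 0.42 for BC CML against CP CML.

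The genes whose levels ran most like Cd69 over the 24 libraries were Egr3 (r = 0.96), Junb (r = 0.96) and Plk3 (r = 0.95), all of which are known to be switched on within an hour of a stimulus. For deviations from the group means the nearest were Klf6 (r = 0.97), Plk3 (r = 0.97) and Atf3 (r = 0.97). The sources used here give no time from death of the mouse to lysis for each library, so its part in these levels was not tested. Of 14 tested partners of CD69, 4 were higher and 5 lower in CP CML against WT, 4 and 4 in BC CML against miR-142 KO, 5 and 2 in miR-142 KO against WT, and 5 and 2 in BC CML against CP CML. S1pr1 fell in all 4 comparisons, from 19.0 ± 2.55 CPM in WT to 10.6 ± 1.36 CPM in miR-142 KO (log2 fold change -0.85 ± 0.13, edgeR adjusted p = 1.41e-05), 12 ± 2.15 CPM in CP CML LSKs and 7.88 ± 1.45 CPM in BC CML (SD, n = 6). S1pr3, another receptor for the same lipid, rose from 25.8 ± 4.34 CPM in CP CML LSKs to 90.1 ± 10.4 CPM in BC CML (1.81 ± 0.12, edgeR adjusted p = 4.07e-11). Sphk1, which makes that lipid, was lower in BC CML than in miR-142 KO (-2.51 ± 0.63, edgeR adjusted p = 0.00324, and -3.26 without BC CML replicate 3), and Lgals1, a galectin ligand of CD69, was 1.96-fold higher in CP CML than in WT (0.97 ± 0.22, edgeR adjusted p = 0.000992).

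**Figure D4:**
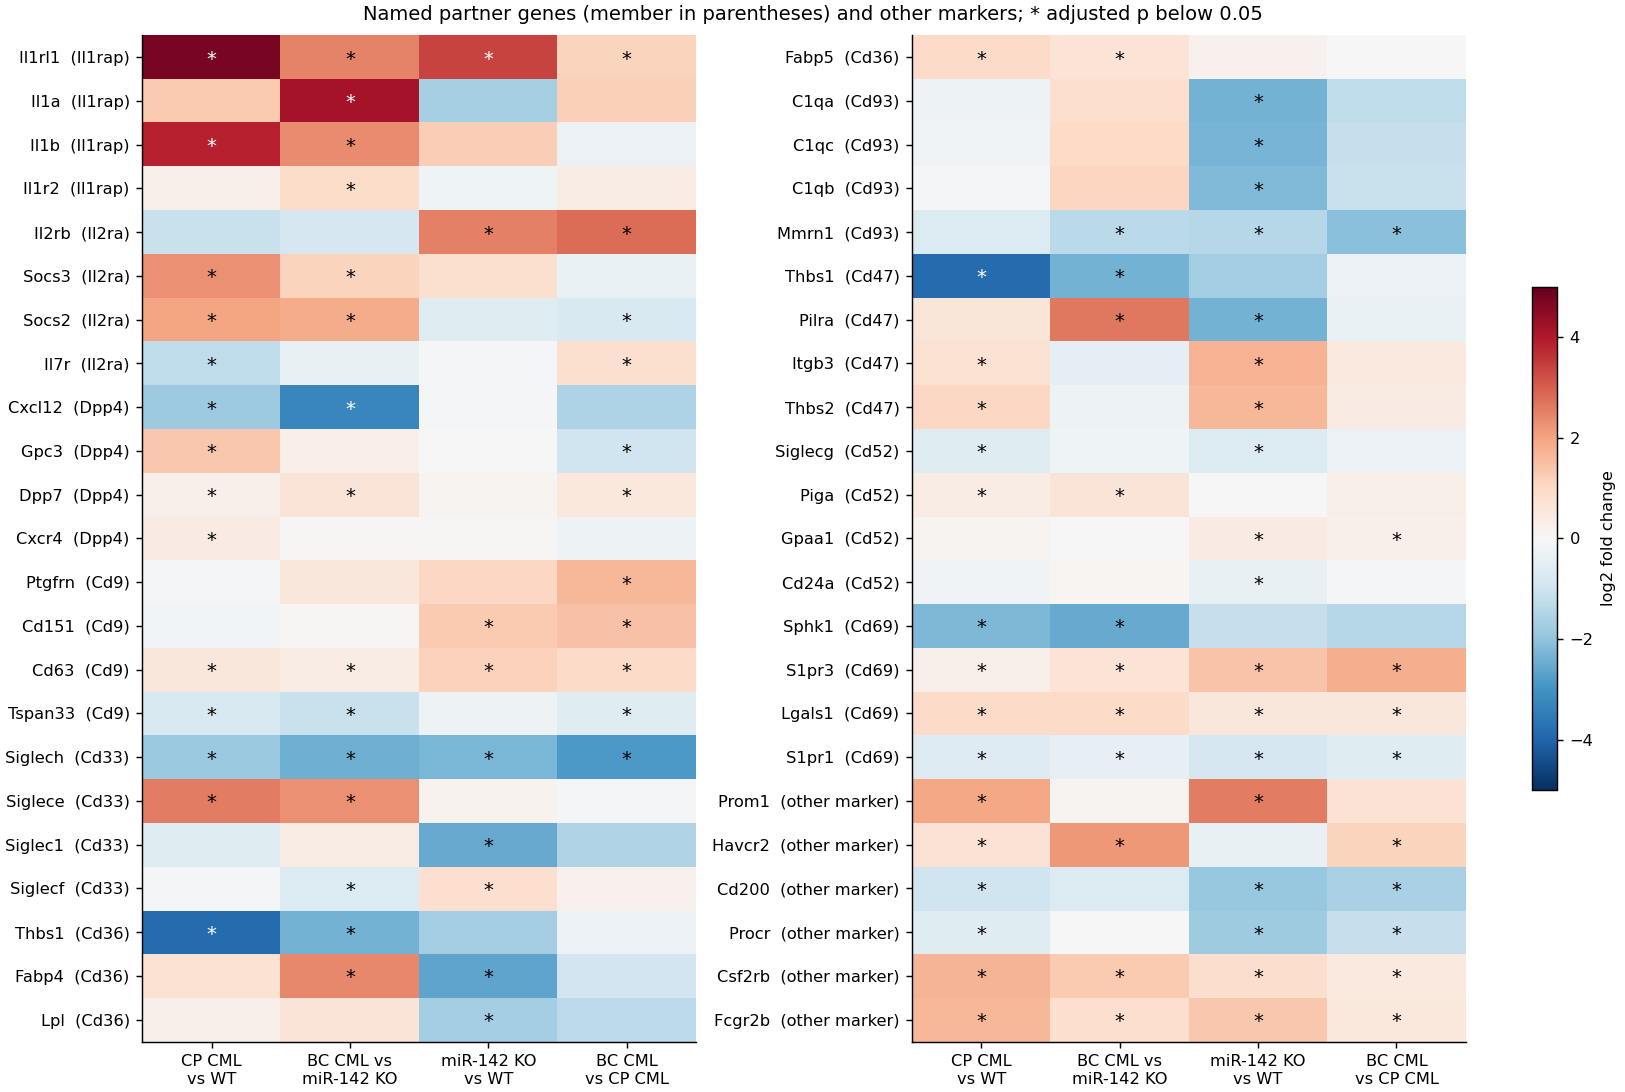
Rows are the named partner genes, with their surface marker in parentheses, and 6 other stem cell markers; columns are the 4 comparisons, colour is the log2 fold change and a star marks an adjusted p below 0.05. Il1rl1 and Fcgr2b are among the genes starred as higher in all 4 columns, and Siglech and S1pr1 are starred as lower in all 4.

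Among 32 tested surface markers of leukemic stem cells outside the 10, 10 were higher and 9 lower in CP CML against WT. Of all tested genes 22.5% were higher and 22.9% lower there. In BC CML against miR-142 KO 4 were higher and 8 lower (20.3% and 19.3% of all tested genes). In miR-142 KO against WT 11 and 6 were (19.9% and 16.4%), and in BC CML against CP CML 9 and 7 (20.4% and 17.6%). Prom1 (CD133) was at 3.92 ± 3.35 CPM in WT, 22.9 ± 8.70 CPM in miR-142 KO, 15.2 ± 5.17 CPM in CP CML LSKs and 25.1 ± 8.70 CPM in BC CML, and was 5.83-fold higher in miR-142 KO than in WT (log2 fold change 2.54 ± 0.40, edgeR adjusted p = 2.45e-05, and 3.14 without WT replicate 3). Havcr2 (TIM-3), an inhibitory receptor of leukemic stem cells, was at 8.39 ± 1.92 CPM in WT, 6.49 ± 1.64 CPM in miR-142 KO, 13.8 ± 1.38 CPM in CP CML LSKs and 29.5 ± 6.90 CPM in BC CML. It was 4.54-fold higher in BC CML than in miR-142 KO (2.18 ± 0.17, edgeR adjusted p = 2.73e-09), and the difference of the effects was called (1.47, edgeR adjusted p = 0.00116). Csf2rb, the shared chain of the IL-3, IL-5 and GM-CSF receptors, was 3.22-fold higher in CP CML than in WT (1.69 ± 0.19, edgeR adjusted p = 3.85e-07), and Fcgr2b, an inhibitory Fc receptor, 3.17-fold higher (1.66 ± 0.14, edgeR adjusted p = 1.01e-08). Procr (CD201), a marker of long-term stem cells, fell from 22.5 ± 8.98 CPM in WT to 6.50 ± 2.22 CPM in miR-142 KO (-1.79 ± 0.24, edgeR adjusted p = 4.12e-06) and from 14.8 ± 2.97 CPM in CP CML LSKs to 6.68 ± 1.35 CPM in BC CML. Cd200, an immune checkpoint ligand, fell from 7.35 ± 1.72 CPM in WT to 1.95 ± 0.87 CPM in miR-142 KO (-1.91 ± 0.34, edgeR adjusted p = 0.000127).

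Levels of the 10 markers were compared with each other per length, as RPKM, the CPM divided by the length of the gene model in kilobases. In WT LSKs the order was Cd47 (211.5 ± 14.7), Cd52 (109.3 ± 22.3), Cd93 (100.1 ± 9.86), Cd69 (53.8 ± 29.9), Cd9 (37.0 ± 4.96), Dpp4 (18.6 ± 1.55), Cd33 (11.4 ± 2.90), Il1rap (3.47 ± 0.21), Cd36 (0.80 ± 0.41) and Il2ra (0.41 ± 0.49 RPKM). Within WT the libraries of Cd52 and Cd93, Cd93 and Cd69, Cd69 and Cd9, and Cd36 and Il2ra overlapped, so their order was not larger than the spread. Cd47 held the top of the order in all 4 groups. Il2ra moved from the last place in WT to the sixth in BC CML at 26.2 ± 6.68 RPKM, above Cd33 (8.45 ± 1.34) and Dpp4 (4.48 ± 1.04), and to the ninth in CP CML at 2.45 ± 1.09 RPKM. Dpp4, which stood above Il2ra in every WT and CP CML library, stood below it in every BC CML library.

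**Figure D5:**
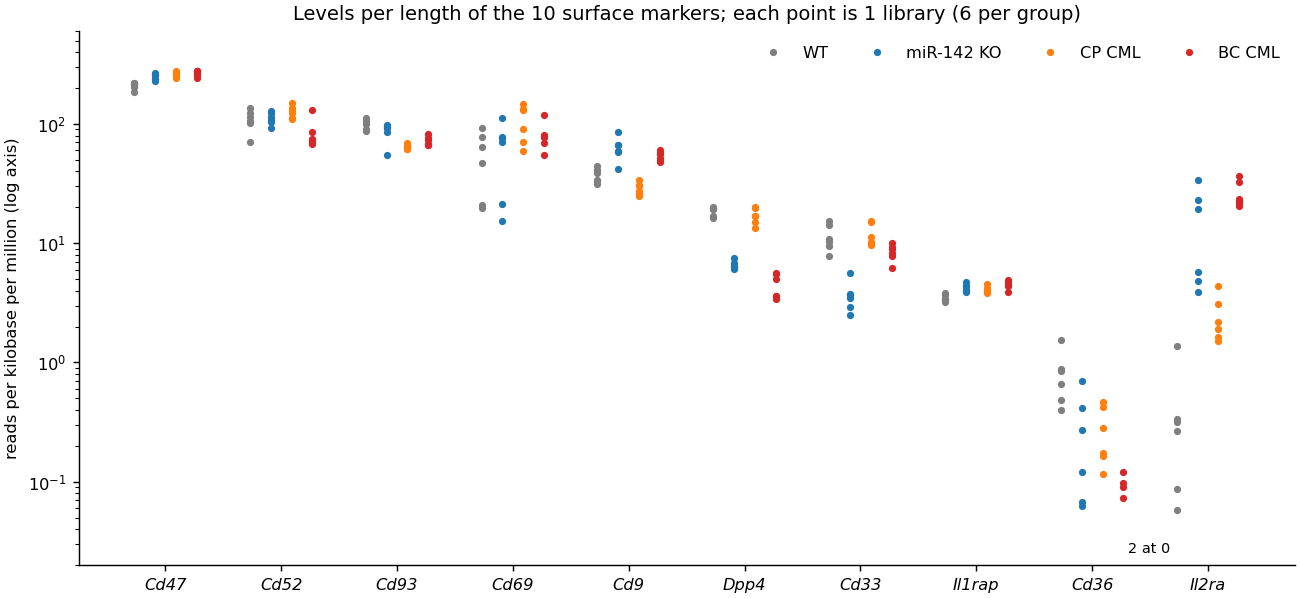
The y axis is RPKM (CPM per kilobase of gene model) on a log scale, each point is 1 library, and the 10 markers are ordered by their mean in WT, with the groups side by side in colour. The Il2ra points run from the lowest in WT to 26.2 ± 6.68 RPKM in BC CML, and the 2 BC CML libraries without a Cd36 count are marked as at 0.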

How the data were processed

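Bulk RNA-seq of sorted mouse LSKs was analysed, with 6 libraries per group, each taken as 1 mouse. The study's methods give n = 5 per group, and all 6 deposited were used. The table the authors deposited gives, for each gene, raw read counts that were not normalized, and its length in kilobases. Per the submitters' processing notes and the study's methods, trimming used Trimmomatic and FASTP, alignment to mm10 used STAR 2.6.0 and HTSeq 0.11.1 counted the reads; the annotation and strand setting are not given in the sources used here. Overlapping or antisense genes therefore cannot be told apart.

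Here 13520 of 24091 genes passed filterByExpr and were fitted in edgeR 4.0.16 (R 4.3.3) with TMM factors, group means over all 24 libraries, quasi-likelihood tests and Benjamini-Hochberg adjustment over all tested genes, at 0.05 with no limit on the fold change. Standard errors and 95% intervals follow from the F statistic. A fit with 8 means of group and sex gave the sex comparisons. Replicate pairs differed by more than counting noise in all 60 cases (chi-square per gene 6.07 to 66.9), so no library was merged. The labels give each library its own identifier, which was read as a separate mouse. The script was tested on simulated counts. Members, partner lists and cell lists were chosen with earlier results of these data known. Named partners were those called in at least 1 comparison with a mean of at least 1 CPM, at most 4 per member by size of change (6 for other markers), with the 3 genes most like each member by Pearson's r. Alternatives were the likelihood ratio test, DESeq2 1.42.0, RLE and upper quartile factors, no filter, at least 1 CPM in 6 libraries, sex as covariate, fits of only the 12 libraries compared, a log2 fold change of at least 1 in size, each mouse left out, CPM on library totals and sites of 8 or 6 bases. Comparisons within a sex, the alternatives for partner genes, cell lists with 1 library left out and overlap on library totals were added after seeing the data.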

Additional observations from a re-analysis of the deposited data

Results flagged for a closer look

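In 3 of the 40 sets of a marker and a group, 1 library lay apart from the other 5 by more than the 95% critical share of the whole range in Dixon's test, a number near what chance gives, about 1 in 20. WT replicate 2, a female, held 7.22 CPM of Il2ra against 0.30 to 1.76 CPM in the other WT libraries (0.789 of the range). MiR-142 KO replicate 3, a female, held 367.8 CPM of Cd93 against 568.4 to 649.7 CPM (0.712 of the range). BC CML replicate 5, a male, held 66.0 CPM of Cd52 against 33.9 to 43.0 CPM (0.717 of the range). The results without each of these libraries are given beside the marker above.

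Cd33 was the marker whose response to miR-142 loss differed with BCR-ABL, by a log2 difference of 1.14 in the test of the difference itself (edgeR adjusted p = 0.0136, and at most 0.0304 under the alternatives tried). The level fell in both settings, from 48.3 ± 12.3 to 15.5 ± 4.63 CPM without BCR-ABL and from 50.7 ± 11.2 to 35.9 ± 5.69 CPM with it (SD, n = 6).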

How the results depend on the processing

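Of 439 values of the members under 9 alternatives, 417 kept direction and call, 14 lost the call, 5 gained one and 3 changed sign; of 720 values with 1 mouse left out the numbers were 670, 28, 12 and 10. Each sign change was of a value that was not called. Cd52 in miR-142 KO against WT (0.038) became -0.011 with upper quartile factors and ranged from -0.059 to 0.12 with 1 mouse left out. Cd47 in BC CML against CP CML (0.017) became -0.029 with upper quartile factors and -0.0031 with at least 1 CPM in 6 libraries, and ranged from -0.023 to 0.022. Cd33 in CP CML against WT ranged from -0.016 to 0.19, and Cd69 in miR-142 KO against WT from -0.038 to 0.43. A log2 fold change of at least 1 in size left 2 members called in CP CML against WT, 2 in BC CML against miR-142 KO, 4 in miR-142 KO against WT, 3 in BC CML against CP CML, 1 that followed BCR-ABL and 3 that followed miR-142. With the 12 libraries compared, 3 members were called in BC CML against miR-142 KO, where Cd36 was not tested, and 0 followed BCR-ABL. Fits of the 12 libraries compared also lost the calls given above for Il1r2, Siglec1, Lpl, C1qb and C1qc (edgeR adjusted p = 0.0511 to 0.0741). DESeq2 called 3 members (Cd33, Cd47 and Cd52) for the difference of the effects. With 1 mouse left out, 4 to 7 members were called in CP CML against WT, 2 to 5 in BC CML against miR-142 KO, 6 or 7 in miR-142 KO against WT, 5 or 6 in BC CML against CP CML and 1 to 3 for the difference of the effects, and 0 to 3 followed BCR-ABL and 4 or 5 miR-142. The cause of these changes was not tested. No share of all tested genes is given for these settings, so these counts describe the members alone. CPM on library totals moved 0 of 44 mean levels by more than their SD. The 8-base site left 0 members for 5p and 1 for 3p. No paired analysis was possible because the labels carry no replicate numbers. Cd36 in BC CML had 0 counts in 2 libraries, each of which allows up to 3 counts, and 6 to 11 in the other 4.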

Other observations

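Among the 12618 genes with a 3′ UTR searched, the 879 with a 7-base match to the 3p seed had a median log2 fold change of 0.087 in miR-142 KO against WT and 0.12 in BC CML against CP CML, against 0.0080 and 0.016 for genes without one. For the 2003 genes with a match to the 5p seed the medians were -0.0050 and 0.026, against 0.016 and 0.019. These medians are given as a description, with no test.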
